A study of Homo sapiens with 10 samples.

Results

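The regions described here were 1708 RNA 5-methylcytosine (m5C) sites of MDA-468 cells, each the single site of a gene that had none in MCF-10A. They made up 20.5% (95% interval 19.7 to 21.4) of the 8320 sites deposited for MDA-468, and each belongs to a different gene. A site was taken when none of its exon blocks overlapped a MCF-10A site by 1 bp or more on the same strand, its gene identifier did not occur in the MCF-10A list, and that identifier occurred 1 time in the MDA-468 list. They were thus chosen by which sites the authors called in each line, so their absence from the MCF-10A list is not a finding. They are called lone sites below. The groups were MDA-468 MeRIP, MDA-468 input, MCF-10A MeRIP, MCF-10A input and a technical replicate of MCF-10A MeRIP, with 2 samples each and 10 in all. MDA-468 is a human breast cancer line and MCF-10A a human mammary epithelial line that does not form tumours, both untreated per the labels. The culture description is the same for every sample and names MDA-MB-468 only. The deposited files hold 1 merged site list for each line and 1 table of differential sites, with no value for any library, so that no value below has a replicate error and the depth behind a site is unknown.

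m5C is a methyl group on carbon 5 of cytosine, placed on RNA by enzymes of the NSUN family and by TRDMT1, and bound in mRNA by proteins such as ALYREF and YBX1. It is best known from transfer and ribosomal RNA, where it bears on stability and translation, and its extent in mRNA has been debated. In MeRIP-seq, fragmented RNA is pulled down with an antibody against the modified base, and a site is a stretch of exon in which pulled-down reads exceed those of the unselected input. A site therefore has the resolution of a fragment and does not show which cytosine, if any, is methylated.

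Most of the reduction from the whole MDA-468 list came at the overlap step. Of the 8320 MDA-468 sites, 4355 (52.3%) overlapped no MCF-10A site. Of these, 451 carried no gene identifier, 764 lay in genes with a site elsewhere in the MCF-10A list (extra sites), 1432 lay in 568 genes with several MDA-468 sites (clustered sites) and 1708 were lone. Lone sites thus stood for 75% of the 2276 genes that were in the MDA-468 list and not in the MCF-10A list. Just inside the rule, 1 lone site lay in an intron of a spliced MCF-10A site of the same strand, and the nearest of the others to such a site were in RAB11B (1186 nt away), IZUMO1 (2416 nt), FOXJ1 (2525 nt) and PCDHB10 (2635 nt). Just outside the overlap part of the rule, single MDA-468 sites of GRIA4, HOXC11, ALOX12B and TAF15 overlapped a MCF-10A site by 1 bp. For most of them this overlap alone did not keep them out. When an overlap of at least 50% of the shorter site was required, 1709 sites were lone, against 1708. Most of these genes must therefore also occur in the MCF-10A list. The border was thinly filled, since 1289 lone sites lay over 100 kb from any same-strand MCF-10A site and the median distance was 250 kb.

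The lone sites with the smallest p-values were mostly stretches of coding sequence rich in A and G, as far as their sequence could be read. The sequences of 5 of them are given, all with over 75% A and G, a composition that also occurred at weaker lone sites. Of the 9 placed sites with a p-value of 1e-40 or less, HSP90AB1 (70.6%), BRD9 (73.4%), ANP32B (75%) and EIF3A (79%) are not shown. As a contrast, 2 strong lone sites with under 50% A and G follow. CYP2F1, of the same kind (46.4%) with a longest run of A and G of 15 nt, is not shown. Coordinates are those of the authors' lists in hg19, from the first to the last exon base with the introns between them. The letters are from GENCODE 29 transcripts, in which each site was found by the lengths of the introns it crosses and of its exon blocks, and are written 5′ to 3′ along the RNA with T for U. Runs of at least 6 purines (A or G) are in capitals. The purine-rich sites lie in LUC7L3 (chr17:48822136-48823311, plus strand), which encodes a splicing factor of the U1 particle, in CANX (chr5:179151675-179155611, plus strand), which encodes the endoplasmic reticulum chaperone calnexin, and in SET (chr9:131456056-131456949, plus strand), which encodes a histone chaperone and phosphatase inhibitor. They also lie in PPM1G (chr2:27606820-27607609, minus strand), which encodes a nuclear protein phosphatase, and in ACBD3 (chr1:226347055-226352536, minus strand), which encodes a Golgi scaffold protein. For SET the 6 nt after the stop codon are left out.
LUC7L3: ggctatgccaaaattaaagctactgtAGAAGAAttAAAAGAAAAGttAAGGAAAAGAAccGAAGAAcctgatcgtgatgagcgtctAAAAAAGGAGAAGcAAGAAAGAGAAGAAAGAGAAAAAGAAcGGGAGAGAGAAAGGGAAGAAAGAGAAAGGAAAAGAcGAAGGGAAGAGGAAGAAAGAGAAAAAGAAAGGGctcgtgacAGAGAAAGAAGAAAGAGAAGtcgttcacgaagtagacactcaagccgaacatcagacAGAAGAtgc
CANX: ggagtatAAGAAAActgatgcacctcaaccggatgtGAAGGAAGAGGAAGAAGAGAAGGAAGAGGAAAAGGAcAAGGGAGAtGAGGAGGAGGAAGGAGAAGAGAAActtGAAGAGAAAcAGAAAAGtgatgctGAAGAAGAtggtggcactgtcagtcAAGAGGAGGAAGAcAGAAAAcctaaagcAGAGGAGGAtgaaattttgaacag
SET: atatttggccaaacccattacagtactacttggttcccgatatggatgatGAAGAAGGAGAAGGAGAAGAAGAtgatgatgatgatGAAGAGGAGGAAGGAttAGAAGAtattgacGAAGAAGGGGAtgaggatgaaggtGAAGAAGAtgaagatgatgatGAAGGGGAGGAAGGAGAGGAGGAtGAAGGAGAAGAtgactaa
PPM1G: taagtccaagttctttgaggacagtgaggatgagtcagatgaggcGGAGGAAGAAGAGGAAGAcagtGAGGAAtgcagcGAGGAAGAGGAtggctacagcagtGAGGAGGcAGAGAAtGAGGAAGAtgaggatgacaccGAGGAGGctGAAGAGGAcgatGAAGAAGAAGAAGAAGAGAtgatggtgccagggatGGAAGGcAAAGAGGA
ACBD3: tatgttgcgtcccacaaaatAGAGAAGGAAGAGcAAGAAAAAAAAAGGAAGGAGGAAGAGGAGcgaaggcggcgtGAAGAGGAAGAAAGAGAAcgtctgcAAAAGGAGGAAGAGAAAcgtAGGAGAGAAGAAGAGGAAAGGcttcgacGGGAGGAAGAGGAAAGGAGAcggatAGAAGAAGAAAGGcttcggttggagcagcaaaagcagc
The contrasting sites lie in CEP164 (chr11:117279728-117280527, plus strand), which encodes a centriole appendage protein, and in CATSPERG (chr19:38857836-38858379, plus strand), which encodes a subunit of a sperm calcium channel.
CEP164: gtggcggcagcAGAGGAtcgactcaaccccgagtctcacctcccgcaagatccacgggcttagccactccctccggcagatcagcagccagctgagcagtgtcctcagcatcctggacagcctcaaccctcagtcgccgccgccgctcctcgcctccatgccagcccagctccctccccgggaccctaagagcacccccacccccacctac
CATSPERG: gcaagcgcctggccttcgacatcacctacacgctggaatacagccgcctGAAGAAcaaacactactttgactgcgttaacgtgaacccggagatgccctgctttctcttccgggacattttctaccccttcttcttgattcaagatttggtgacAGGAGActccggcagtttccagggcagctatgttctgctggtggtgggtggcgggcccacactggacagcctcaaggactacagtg

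Purines made up 79.3% of the LUC7L3 site, 79% of the CANX site, 76.1% of the whole SET site, 78.1% of the PPM1G site and 81% of the ACBD3 site. The longest run without a C or T was 35 nt in LUC7L3 and 36 nt in CANX. Cytosines, the base that can carry the mark, made up 11.1% of the LUC7L3 site, 9.52% of the CANX site and 6.22% of the SET site. In the contrasting sites purines made up 40.8% in CEP164 and 47.1% in CATSPERG, and cytosines 45.5% and 28.8%. The purine-rich sites shown also ranked high within their own RNA. The SET site had a higher purine share than 99.2% of all windows of its length in its transcript, and the PPM1G site than 99.2%. The share was 99.1% for ACBD3, 98.9% for CANX, 93.3% for LUC7L3 and 7.14% for the contrasting CEP164 site. Of the 10 placed lone sites with the smallest p-values, 3 were in the highest 1% of their transcript and 8 in the highest 10%.

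This reading was possible for 271 lone sites. Of the 1708, 353 crossed at least 1 exon junction, and 271 of these (76.8%) had exactly 1 sequence in the GENCODE transcripts of their gene. The 1355 lone sites in a single exon block were not placed, because no genome of the files' build was used here. Of the 26 lone sites with a p-value of 1e-40 or less, 12 crossed a junction and 9 were placed, and the sites of PTMA, EZR and MUC2 were not. The strong sites that were placed are therefore few, and the genes of the others are described further on.

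Among the 4 p-value ranges of the placed lone sites, the range with the smallest p-values had the highest median purine share. The 9 sites with a p-value of 1e-40 or less, in LUC7L3, CANX, ANP32B, SET, HSP90AB1, PPM1G, ACBD3, BRD9 and EIF3A, had a median of 78.1% purines and a range from 70.6% in HSP90AB1 to 81% in ACBD3. The 21 sites with a p-value from 1e-40 to 1e-20 had a median of 64% (40.8 to 81.9), the 96 from 1e-20 to 1e-10 a median of 48.9% (26.2 to 84.4) and the 145 weaker ones a median of 52.5% (33.3 to 85.7). All 9 of the strongest were at 70.6% or more. The upper quartiles of the 3 weaker ranges were 77.8%, 63.4% and 59.7%, so the range from 1e-40 to 1e-20 also held sites with shares as high. Over all 271 the median was 52.9% (interval 51 to 54.7), close to the 52.2% of consecutive 180-nt windows over all coding sequences. Across the 271 sites Spearman's rho between purine share and -log10 of the p-value was 0.13, a description of sites that share libraries. The pattern thus lay mostly in sites with a p-value of 1e-20 or less and not along the whole range.

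**Figure D1:**
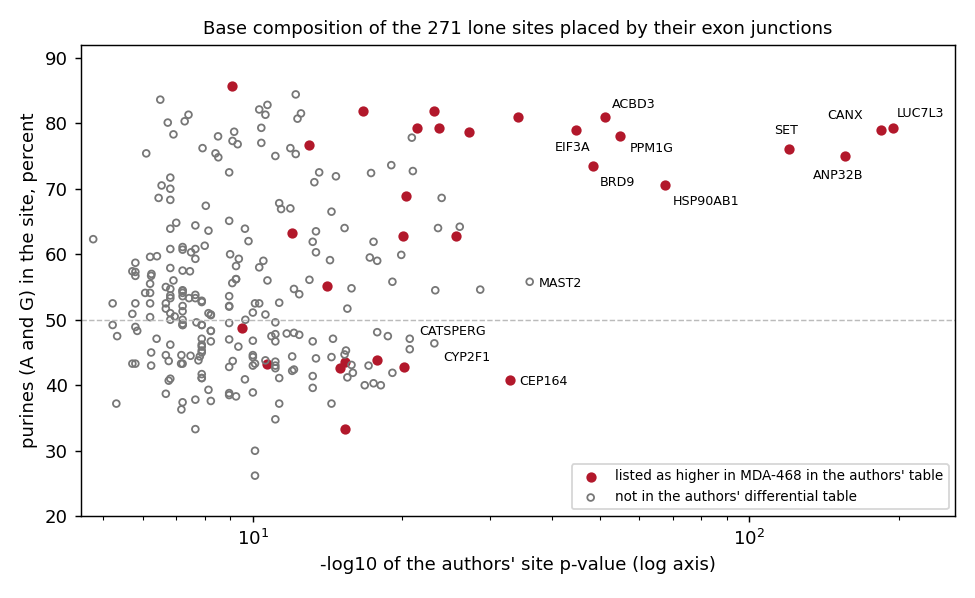
Purine share (percent of A and G, vertical axis) of the 271 placed lone sites against -log10 of the authors' p-value (horizontal, log axis). Filled points are sites listed as higher in MDA-468 in the authors' differential table and open points are the others. The 9 sites farthest right all lie between 70.6% and 81%, and the sites further left spread from 26.2% to 85.7%.

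A purine share of 75% or more was found in 39 placed lone sites (14.4%, interval 10.4 to 19.1), in 14 of 250 placed clustered sites (5.6%, 3.1 to 9.22), in 8 of 82 placed extra sites (9.76%, 4.31 to 18.3) and in 0 of 115 placed sites shared with MCF-10A, which allows up to 3.16%. In the MCF-10A list it was found in 0 of 89 placed sites without a MDA-468 partner and in 0 of 135 with one. It occurred in 384 of 178548 coding windows of 180 nt, or 0.215%, while the coding share of the site classes differs, as given below. Lengths differ too: the 39 lone sites include short ones such as RDX (61 nt) and DNAJC2 (91 nt), and a share over a short stretch varies more. These shares are therefore not a like comparison with the windows or between the classes. Beside LUC7L3, CANX, ANP32B, SET, PPM1G, ACBD3 and EIF3A, it occurred in the next p-value range in SRSF11 (81%), which encodes a splicing factor, UPF3B (78.7%), which encodes a nonsense-mediated decay factor, UBXN4 (79.2%), ANP32A (81.9%), EIF5B (79.3%), which encodes an initiation factor, and NOP58 (77.8%), which encodes a core protein of nucleolar methylation particles. The highest purine shares stood at weaker sites, with 85.7% in DNAJC2 at a p-value of 8.1e-10 and 84.4% in EIF3J at 6.3e-13, so a purine-rich stretch did not by itself go with a small p-value. The genes of these 2 sentences were picked after their values were seen. The 39 sites include those of ZFP91 and ZFP91-CNTF, whose spans overlap (chr11:58379116-58380238 and chr11:58379110-58379798).

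Several strong lone sites that were not purine-rich lay in GC-rich sequence. The MAST2 site (p-value 7.9e-37), across the start codon of a microtubule-associated kinase gene, had 73.8% GC, 12.9 CpG dinucleotides per 100 nt and 55.8% purines. The CEP164 site (p-value 1e-33) had 67.3% GC, and the TRERF1 site (p-value 6.3e-21), 601 nt long in a zinc finger regulator gene, had 67.4% GC and 42.8% purines. The BMPR1A site (p-value 2e-29), in a gene for a bone morphogenetic protein receptor, was neither, with 45% GC and 54.6% purines. Over all placed lone sites the median GC content was 57.1%, against 60.8% in clustered, 58.5% in extra and 54.1% in shared sites, and the medians of CpG per 100 nt were 4.4 in lone sites, 5 in clustered, 4.36 in extra and 3.28 in shared sites. The median base shares of lone sites were 23.3% A, 27.5% C, 28.3% G and 17.8% T, against 21.7% A, 28.3% C, 25.3% G and 23.4% T in shared sites. Placed lone sites thus held less T and more G than placed shared sites at close shares of C. The same was seen in placed clustered sites (27.9% G and 17.5% T) and extra sites (27.8% G and 17.9% T), so it is not particular to lone sites.

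Short purine motifs, searched as GAA or GAG followed directly by GAA or GAG, on the RNA strand only and allowed to overlap, were about as frequent in lone sites as in coding sequence and less frequent in MCF-10A sites. At least 1 of these 4 hexamers stood in 117 of the 271 placed lone sites (43.2%, interval 37.2 to 49.3), in 34.4% of clustered, 36.6% of extra and 31.3% of shared MDA-468 sites, and in 42.6% of the 180-nt coding windows. In the MCF-10A list they stood in 14 of 89 placed sites without a MDA-468 partner (15.7%, interval 8.88 to 25) and in 24.4% of those with one (17.5 to 32.6). They stood in 9 of 9 placed lone sites with a p-value of 1e-40 or less and in 18 of 21 of the next range (85.7%), against 1 of 2 clustered, 2 of 4 extra and 11 of 12 shared MDA-468 sites with a p-value of 1e-40 or less. In the MCF-10A list they stood in 2 of 5 sites without a partner and 17 of 74 with one (23%) at that limit. The limit was reached by 59.3% of all MCF-10A sites and 4.83% of all MDA-468 sites. It therefore does not mark an equal part of each list, and these counts are not a like comparison of the lines. The lengths of sites differ between the groups of sites, and longer stretches hold a given motif more often. Their place differs too. Of placed lone sites 75.3% lay wholly in coding sequence, against 34.8% of MCF-10A sites without a partner and 18.5% of those with one. The 180-nt windows are all coding. The part of this difference in the motif shares was not tested.

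By position in the transcript, 204 of the 271 placed lone sites (75.3%, interval 69.7 to 80.3) lay wholly in coding sequence. Another 14 crossed the start codon, 14 crossed the stop codon, 13 lay in a 5′ UTR, 3 in a 3′ UTR and 23 in transcripts without a coding sequence. The coding share was 86.8% in clustered, 76.8% in extra and 18.3% in shared sites, of which 40% lay in transcripts without a coding sequence. These shares count sites that cross a junction, which are rarer in long last exons, so they do not give the place of all lone sites.

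At the level of genes, which needs no placing, the same contrast was seen for single-block sites too. Among the 26 lone sites with a p-value of 1e-40 or less, 24 were in protein-coding genes with a GENCODE coding sequence, and 20 of these genes (83.3%, interval 62.6 to 95.3) held at least 1 window of 150 coding nt with 75% or more purines. The share was 17.3% of 98 genes with a lone site between 1e-40 and 1e-20, 11.2% of 545 between 1e-20 and 1e-10 and 5.95% of 840 above 1e-10. It was 9.82% of all 1507 lone-site genes, 9.94% of 513 genes with clustered sites, 4.19% of 2456 genes with sites in both lines, 2.79% of 574 with sites in MCF-10A alone and 4.27% of all 19113 coding genes. The genes outside the pattern among the 24 were MUC2 (highest window 58.7%), RAB13 (66.7%), IGF2BP3 (63.3%) and NRSN2 (52.7%). Of the 12 strong genes with a single-block site, 9 had such a window, among them HSP90AA1 (84%), TRIM44 (86.7%), TCEAL4 (86.7%), PNN (82.7%), PRRC2C (90.7%) and PELP1 (89.3%). Whether the site lies on that window is not known for these 9. Among genes whose best MDA-468 site had a p-value of 1e-40 or less, the share was 4 of 13 for clustered sites (30.8%) and 9 of 251 for genes with sites in both lines (3.59%).

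**Figure D2:**
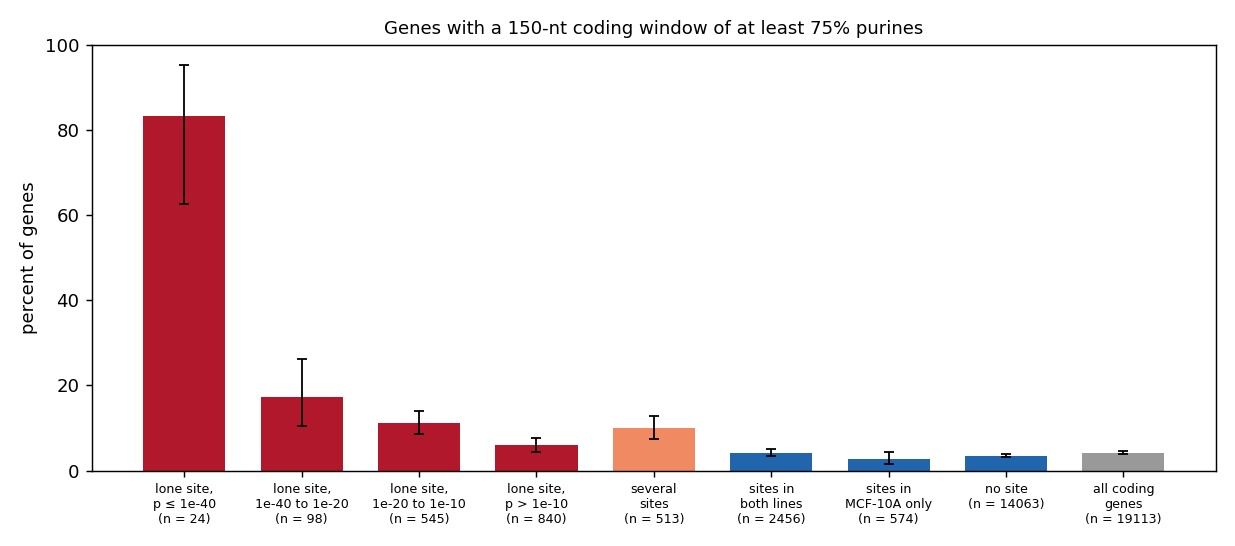
Percent of coding genes with at least 1 window of 150 coding nt that is 75% or more purines (vertical axis), for genes with a lone MDA-468 site in 4 ranges of the authors' p-value and then for the other gene classes. Error bars are exact 95% intervals that cover the counting of genes only. The leftmost bar stands at 83.3% and the others at 17.3% or less.

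The 10 smallest p-values among the lone sites belonged mostly to RNAs of nuclear proteins and chaperones, and most of these sites were also in the authors' differential table. MALAT1, a long nuclear RNA without a protein product, had a 240-nt site at chr11:65267028-65267267 on the plus strand with a p-value listed at 0. LUC7L3 followed at 1e-195, CANX at 1e-184, PTMA, which encodes the acidic nuclear protein prothymosin alpha, at 1e-174, ANP32B, which encodes an acidic histone chaperone, at 1e-156, SET at 1e-120 and HSP90AA1, which encodes inducible cytosolic HSP90, at 1e-119. MUC2, which encodes a secreted gel-forming mucin, stood at 1e-112, the pseudogene MST1P2 at 1e-92 and TRIM44, a tripartite motif gene, at 2e-81. These p-values are the authors' own and serve only to rank sites within this list. PTMA, SET, HSP90AA1 and MST1P2 have near-identical copies in the genome, and how reads were divided between copies is not given in the sources used here.

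Differential sites of the authors' deposited table overlapped 159 lone sites (9.31%, interval 7.97 to 10.8), and all 159 were listed as higher in MDA-468. Over all 8320 MDA-468 sites, 430 overlapped a site of the authors' deposited table listed as higher in MDA-468, which is 5.17%. By the authors' deposited table, 9.85% of clustered, 10.1% of extra and 0.504% of shared sites had more in MDA-468. In this direction lone sites stood with the other sites without a MCF-10A partner. Shared sites were mostly listed the other way. The authors' deposited table had 1404 of them (35.4%) as higher in MCF-10A, against 2 clustered, 12 extra and 0 lone sites. The direction at lone sites is close to what choosing sites absent from MCF-10A fixes, and nothing is read from it. The other 1549 lone sites were not listed as differing between the lines.

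The largest differences and the smallest p-values belonged to different lone sites. In the authors' deposited table the log2 fold changes of the 159 sites ran from 0.841 in TRIM44 to 7.08 in PRDM8, a zinc finger repressor gene, with a median of 2.91. After PRDM8 the authors' deposited table listed ZNF575 (6.61), CMTM1 (6.55), RUNX2, the master regulator gene of bone formation (6.42), WIPF1, an actin regulator gene (6.41), RFX2 (6.32), CLEC11A (6.32) and the orphan nuclear receptor gene NR4A2 (6.27). None of these 8 was among the 26 sites with a p-value of 1e-40 or less. In the authors' deposited table those 26 included 20 differential sites with a median log2 fold change of 2.12, against 2.93 at the 33 listed sites between 1e-40 and 1e-20 3.51 at the 87 between 1e-20 and 1e-10 and 2.33 at the 19 above 1e-10.

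Among the lone sites in the authors' deposited table, those of the strongest of the 4 p-value ranges had the lowest median enrichment. The authors' deposited table listed 76.9% of the lone sites of that range and 30.3%, 14% and 2% of the next ranges in turn. The medians thus cover unlike parts of the ranges and do not give the enrichment of all lone sites. The authors' deposited table gave a MeRIP to input ratio of 1.16 for CANX, 1.17 in HSP90AB1, 1.17 in EZR, which encodes the actin linker ezrin, 1.22 in PPM1G, 1.24 in PNN, a splicing-associated gene, and 1.3 in MALAT1. The median in the authors' deposited table was 1.65 (1.16 to 3.07) at the 20 listed sites with a p-value of 1e-40 or less, 4.7 (1.46 to 101) at the 33 of the next range, 3.95 (1.33 to 101) at the 87 after that and 2.41 (1.48 to 87.6) at the 19 weakest. At a given ratio a p-value grows smaller with the number of reads. The part of transcript abundance in this order was not tested, since the files hold no read counts. By composition, the 15 listed sites with 75% purines or more had a median ratio of 1.9 (1.16 to 2.79) in the authors' deposited table and the 15 other placed and listed sites one of 3.07 (1.17 to 11.1). CEP164, with 40.8% purines, had the 11.1. Which line's libraries the enrichment refers to is not given in the sources used here.

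**Figure D3:**
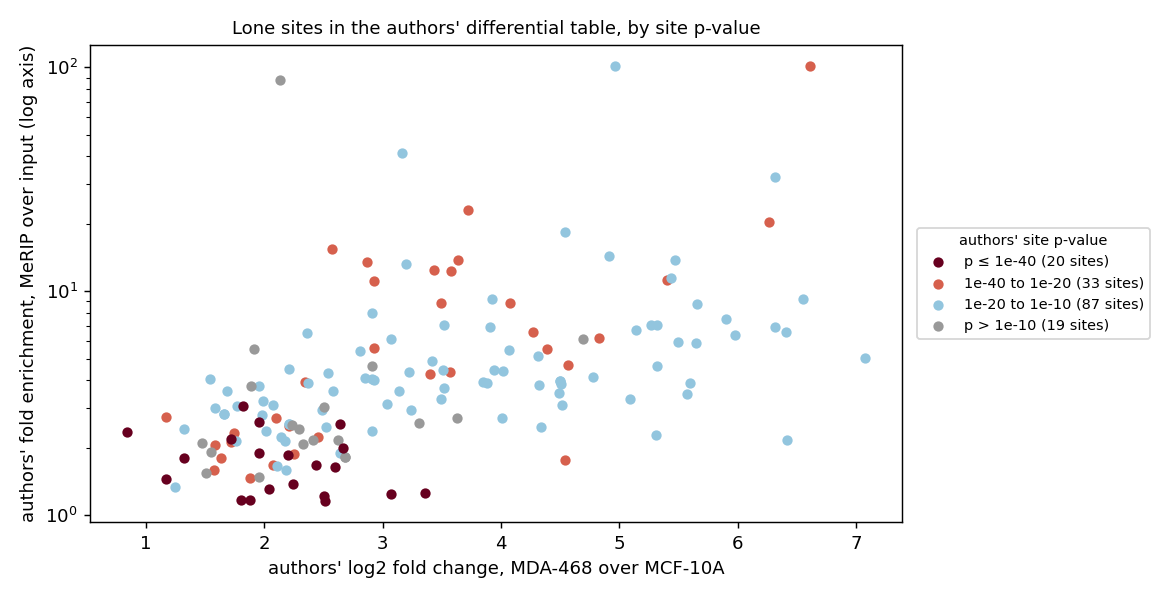
The authors' fold enrichment of MeRIP over input (vertical, log axis) against the authors' log2 fold change of MDA-468 over MCF-10A (horizontal) for the 159 lone sites in the authors' deposited table, coloured by the authors' site p-value. The 20 sites with a p-value of 1e-40 or less lie at 3.07 or lower, below the medians of 4.7 and 3.95 of the 2 middle ranges.

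Lone sites were short. Their median exonic length was 121 nt, with quartiles of 90 and 180 nt and a range from 58 to 1348 nt, against medians of 150 nt in clustered, 150 nt in extra and 240 nt in shared sites. Lengths of 100 nt or less, about 1 RNA fragment, made up 34.7% of lone sites, 32.4% of clustered, 33.9% of extra and 6.2% of shared sites, and 82 lone sites (4.8%) reached 300 nt, against 27.1% of shared sites. In 1605 lone sites (94%) the length was within 1 nt of a multiple of 30 nt, so lengths are steps and not continuous values. Among the longest lone sites were those in MUC2 (1348 nt), in IGF2BP3, which encodes an mRNA-binding protein of fetal and tumour tissue (867 nt), in SCRT2 (746 nt), in PRPF38B (630 nt) and in the olfactory receptor gene OR1I1 (624 nt). A longer site has more chance to touch a site of the other list, so length is not independent of the rule.

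**Figure D4:**
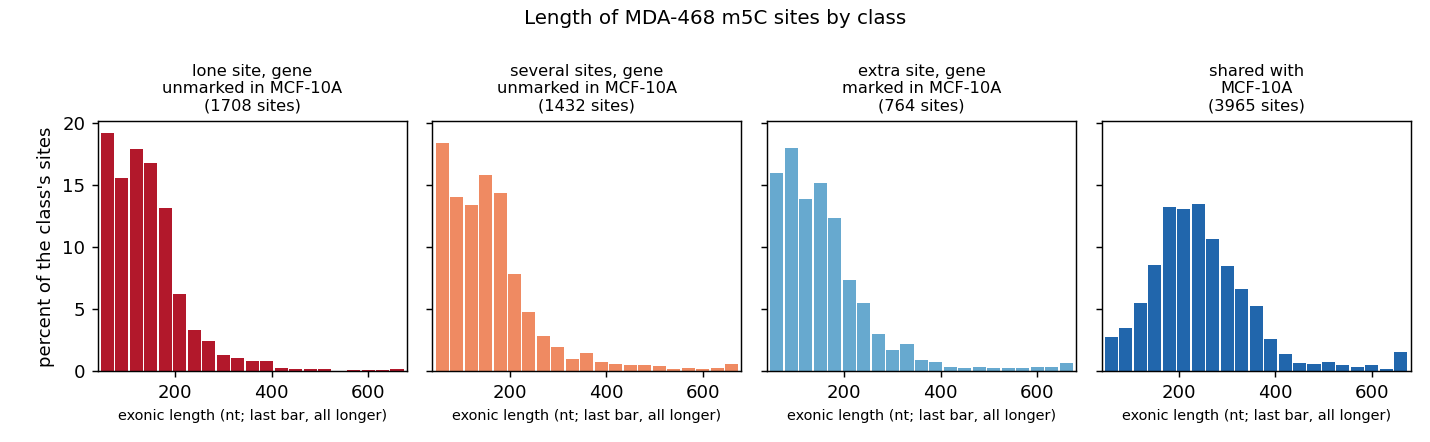
Exonic length of MDA-468 sites (horizontal axis, nt, in bins of 30 nt, the last bar holding all longer sites) as percent of the sites of each class (vertical axis). From left to right the classes are lone, clustered, extra and shared sites, with medians of 121, 150, 150 and 240 nt.

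Lone sites crossed exon junctions more often than shared sites. More than 1 exon block was found in 353 lone sites (20.7%, interval 18.8 to 22.7), in 21.9% of clustered, 14.1% of extra and 5.62% of shared sites. Of the lone sites, 292 had 2 blocks, 50 had 3 and 11 had 4, among them PTMA, ANP32B, UPF3B and the antisense RNA HOXB-AS1. In strength the lone sites were a little below the other sites without a partner: the median of -log10 of the authors' p-value was 9.13 (8.96 to 9.36), against 9.98 in clustered, 9.64 in extra and 18.3 in shared sites. The weakest lone sites, in APBB1, DRAM1, CPNE4 and DOCK1, were 61 nt long with p-values from 1.1e-05 to 1.7e-05, while the weakest MCF-10A site had 3e-08. Even the lower quartile of -log10 p among lone sites, 7.22, was weaker than any MCF-10A site. Many lone sites thus come from a range of p-values that the MCF-10A list does not hold. Over the whole lists the median of -log10 p was 12.4 in MDA-468 and 52.6 in MCF-10A. With p-values of 1e-10 or less alone, 1022 sites were lone, of which 757 were lone before, and their median length was 180 nt.

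Of the 1708 genes, 1698 (99.4%) had a name in the RefSeq gene table. They comprised 1513 protein-coding genes, 110 long noncoding RNA genes and 72 transcribed pseudogenes. Lone-site genes had longer coding sequences than genes with sites in both lines, with a median of 1620 nt against 1443 nt, and shorter ones than genes with clustered sites, at 2160 nt. Their coding sequences had a median GC content of 58.7% and 4.26 CpG per 100 nt, below the 61% and 4.9 of genes with clustered sites. The values were 50.4% and 2.56 in genes with sites in both lines, 51.1% and 2.71 in genes with sites in MCF-10A alone and 52.3% and 2.76 in genes without a site. Transcripts of a single exon made up 4.98% of lone-site genes, 4.09% of genes with clustered sites, 1.83% of genes with sites in both lines and 5.62% of all coding genes. The core of the Alu repeat stood in the transcripts of 1.79% of lone-site genes, 1.56% of genes with clustered sites and 26.8% of genes with sites in both lines.

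Among the gene lists, genes of embryonic patterning held the largest share of lone sites. Of all 20056 protein-coding genes, 7.54% had a lone site, and of the 1076 genes of all lists together 130 had one (12.1%). A list with a share near 12.1% is therefore not raised among the lists, which were chosen with earlier results known. Of 118 homeobox, paired box and other developmental transcription factor genes 30 had a lone site (25.4%). The list also held 12 genes with clustered sites, 16 with sites in both lines and 10 with sites in MCF-10A alone, so many of its genes had sites of some class. The lone sites were those of HOXA4 (p-value 2e-19, 269 nt), HOXA5, HOXA9, HOXA13 (p-value 3.2e-17, 360 nt), HOXB2, HOXB5, HOXB6, HOXB13, HOXC4, HOXC9 and HOXD3, which encode positional regulators of the body axis, and of PAX2, PAX9 (p-value 2.5e-19, 180 nt), SOX8, SOX10 (p-value 1.3e-19, 301 nt), SOX12 (p-value 7.9e-19, 269 nt), RUNX2, TFAP2A and TP63 among others. The authors' deposited table listed 8 of the 30 as differing, with log2 fold changes of 6.42 in RUNX2, 5.9 in PAX9 and 5.65 in TP63 at the top. Only the MEIS2 site crossed an exon junction, and no sequence was read for this list.

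**Figure D5:**
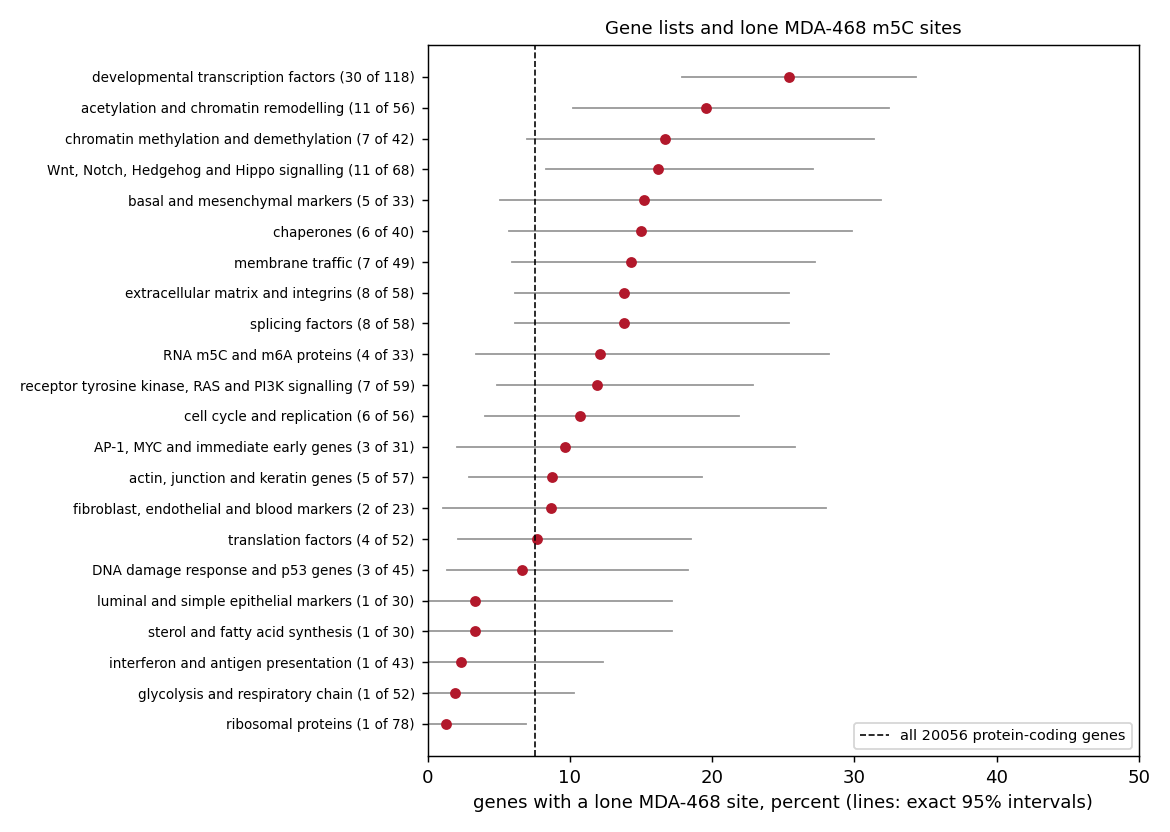
Percent of the genes of each list that have a lone MDA-468 site (points, horizontal axis) with exact 95% intervals that cover the counting of genes only, and the share of all protein-coding genes (dashed line, 7.54%). Developmental transcription factors stand at 25.4% at the top and ribosomal proteins at 1.28% at the bottom.

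Regulators of chromatin came next. Acetylation and chromatin remodelling genes had lone sites in 11 of 56 (19.6%), among them BRD9, a bromodomain subunit of a BAF remodelling complex (p-value 4e-49), BRD7 (p-value 1e-19), the corepressor gene NCOR1 (p-value 2e-17) and CHD4 (p-value 6.3e-13), and 6 of the 11 crossed a junction. With sites at a p-value of 1e-10 or less alone, 7 of these genes had a lone site. Chromatin methylation genes had lone sites in 7 of 42 (16.7%), led by the H3K27 demethylase gene KDM6B, whose 480-nt site had a p-value of 6.3e-21, with PRDM2 (1.3e-16), KDM4B (2e-15), KDM1B (2e-11), KDM2A, EZH2 and KMT2B. Of the genes for proteins of the RNA m5C and m6A pathways, 4 of 33 had a lone site (12.1%): IGF2BP3, the m6A reader gene YTHDC1 (p-value 3.2e-15), the m6A writer subunit gene VIRMA (p-value 3.2e-13) and the dioxygenase gene TET3 (p-value 3.1e-06). No m5C methyltransferase gene was among them.

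Chaperone and splicing genes held some of the strongest lone sites. Lone sites were found in 6 of 40 chaperone genes (15%) with a median -log10 p of 56.9, against 9.11 over the lone sites of all protein-coding genes. They were CANX, HSP90AA1 (1e-119), HSP90AB1 (2e-68), which encodes constitutive cytosolic HSP90, HSP90B1 (7.9e-47), which encodes its endoplasmic reticulum relative, PDIA6 (5.9e-09) and DNAJB6 (1.5e-07). Splicing factor genes had 8 of 58 (13.8%) with a median of 23, namely LUC7L3, PNN (7.9e-58), SRSF11 (6.3e-35), PRPF38B (3.2e-27), SRSF4 (3.2e-20), SON (1e-11), SF3A1 (1.1e-08) and LUC7L (2.2e-09). Translation factor genes had 4 of 52 (7.69%), close to the share of all genes, with EIF3A and EIF5B in front.

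Lone sites in the Wnt, Notch, Hedgehog and Hippo genes were mostly weak. Of 68 genes of the Wnt, Notch, Hedgehog and Hippo pathways 11 had one (16.2%), with a median length of 91 nt and a median -log10 p of 6.82, the strongest in the Notch ligand gene JAG1 (p-value 1.6e-15), and with sites at a p-value of 1e-10 or less alone 5 had one. Receptor tyrosine kinase, RAS and PI3K genes had 7 of 59 (11.9%), among them FGFR1 (p-value 4e-16) and the insulin receptor substrate gene IRS1 (p-value 3.2e-12), listed with log2 fold changes of 2.85 and 5.98 in the authors' deposited table, and 4 had one at a p-value of 1e-10 or less alone. Extracellular matrix genes had 8 of 58 (13.8%), among them LAMB1 (p-value 2e-15). Actin, junction and keratin genes had 5 of 57 (8.77%), led by EZR and the catenin gene CTNND1 (p-value 4e-31), with a median -log10 p of 12.4. The smallest shares were in ribosomal protein genes (1 of 78, RPL9, 1.28%), glycolysis and respiratory chain genes (1 of 52, PFKFB3, 1.92%) and interferon and antigen presentation genes (1 of 43, MX2, 2.33%). Of these lists ribosomal proteins and interferon genes had 7 and 8 genes with sites in both lines.

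A site is not an expression level, so the identity of the lines could not be checked against marker genes. Lone sites were found in 5 of 33 basal and mesenchymal markers (15.2%), among them TP63, MMP9 (p-value 5e-16), MMP14 (p-value 2.3e-09) and KRT14 (p-value 5.9e-09), in 1 of 30 luminal markers (OVOL1, p-value 1.6e-21) and in 2 of 23 fibroblast, endothelial and blood markers. Those were the endothelial genes KDR (p-value 2e-19, 240 nt), listed in the authors' deposited table with a log2 fold change of 4.91, and VWF (p-value 6e-08, 150 nt). The basal and mesenchymal share of 15.2% is near the 12.1% of all lists together, with 7.54% over all protein-coding genes. Of the other basal and mesenchymal markers, 3 had clustered sites, 5 had sites in both lines, 2 had sites in MCF-10A alone and 18 had none. Nothing about the kind of cell is read from these counts. The level of RNA of the marker genes was not analysed here.

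Some gene families that were picked after their counts were seen held lone sites in many members. Protocadherin beta genes, single-exon adhesion genes of the nervous system, had 9 of 16 with a lone site, led by PCDHB3 (p-value 4e-26, 210 nt) and PCDHB12 (p-value 1e-24, 420 nt), and protocadherin gamma genes 7 of 22. Protocadherin alpha genes had 0 of 15. Beta tubulin genes had 5 of 10, with TUBB3, the neuronal form, in front (p-value 2e-19, 271 nt), HOX genes 12 of 40, NKX homeobox genes 5 of 14, voltage-gated calcium channel genes 5 of 14, led by CACNA1I (p-value 7.9e-27), and ANP32 genes 3 of 4. The 12 HOX genes include both HOXA9 and HOXA10-HOXA9. These carry the same values in the authors' deposited table (log2 fold change 4.5), so the same stretch may be counted under both. Keratin-associated protein genes of hair had 9 of 94, led by KRTAP16-1 (p-value 2.5e-32, 449 nt), and this share of 9.57% is near the 7.54% of all protein-coding genes. Other large families held few, with 19 of 517 ZNF genes and 3 of 392 olfactory receptor genes. Members of the protocadherin, tubulin and keratin-associated families have closely similar sequences, and how reads that match several members were counted is not given in the sources used here, so the member that carries a site is uncertain.

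Lone sites lay on every autosome and on the X chromosome. Chromosome 1 held 9.95% of lone sites and 10.9% of all MDA-468 sites, chromosome 19 held 8.61% and 9.81%, chromosome 17 held 7.85% and 7.13%, chromosome 11 held 7.67% and 6.11%, chromosome 6 held 7.14% and 5.56% and chromosome 2 held 6.44% and 4.95%. The intervals of the lone shares left out the share of the whole list on chromosomes 2, 6, 11 and 20 (3.22%, against 2.33%), where lone sites were more frequent, and on chromosomes 3 (3.57%, against 4.72%) and 7 (4.57%, against 6%), where they were less frequent. The whole list includes the lone sites. None lay on the Y chromosome or in mitochondrial RNA. Of the lone sites, 96 overlapped another MDA-468 site on the same strand, 60 of them a site without a gene identifier and 32 another lone site, as in the near-identical pairs CDK11A and CDK11B or SRGAP2 and SRGAP2C, so that these stretches were counted under more than 1 gene. On the opposite strand 3 lone sites overlapped a MCF-10A site, in HEATR4 (50 nt), DDX43 (17 nt) and KAAG1 (9 nt). Whether the libraries keep the strand is not given in the sources used here, so for these 3 the strand of the RNA is uncertain.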

How the data were processed

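MeRIP and input libraries of both lines were prepared from 25 µg of polyadenylated RNA cut to about 100 nt and read as 50 bp single reads, per the labels' protocols. The submitters' processing notes name TopHat and hg19, and exomePeak and UCSC known genes are named per the file headers. Each site of the 2 lists carries a p-value deposited by the authors. The differential table holds the authors' fold enrichment (a ratio), the authors' log2 fold change, and logarithms of p-values deposited on a score scale. Its title line and its name give opposite directions, so its direction was settled by overlap: of 389 sites with a positive value in the authors' deposited table, 381 overlapped a MDA-468 site and 19 a MCF-10A site, while of 1406 with a negative value 1221 and 1334 did. A positive value is therefore taken to mean more in MDA-468.

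Sites were compared by exon blocks on the same strand, with at least 1 bp shared. Names came from a RefSeq table (GRCh38.p14) by gene identifier, and 1111 of 1112 entries in 22 gene lists were matched. Sites with several exon blocks were placed on GENCODE 29 transcripts of their gene by intron and block lengths, with no conversion of coordinates. On simulated sites 99.2% of 1371 were placed and 0 wrongly. Of 3331 simulated sites that were moved by less than their length 100% were found to overlap, and 71 sites that had been dropped overlapped a moved site of another row. Coding features use the transcript with the longest coding sequence. Shares carry exact Clopper-Pearson 95% intervals and medians order-statistic intervals, and both reflect only how many sites were counted. No test was made, because no file holds values per library and sites are not replicates. The members and lists were chosen with earlier results of these data known, and the limits on purine share and p-value after the sequences were seen. Genes named follow a rule: the 10 smallest p-values, the 6 longest sites, the 8 largest log2 fold changes, the 4 with most blocks, the 4 largest p-values, opposite-strand overlaps, up to 4 per list and 4 sites just outside. Further genes are named as examples of a group described. A few items under this rule are not reported here. Results under 7 other settings are given in the closing section. Python 3.11.15 with numpy 2.4.6, scipy 1.17.1 and matplotlib 3.10.9 was used.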

Additional observations from a re-analysis of the deposited data

How the results depend on the processing

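No paired analysis was possible because the files hold no values per library. A stricter limit on the MDA-468 list changed the lone sites most. With MDA-468 sites at a p-value of 1e-10 or less alone there were 1022 lone sites (74.1% of them lone before), with a median length of 180 nt, 23.2% with more than 1 exon block and a median -log10 p of 13.2. With the MDA-468 list reduced by best p-value to the length of the MCF-10A list there were 955 (73.2% lone before), with a median length of 180 nt, 23.4% with more than 1 block and a median -log10 p of 13.6. Both settings remove weak sites by construction, which also turns genes with several sites into genes with 1. The number in the authors' deposited table was 175 and 173 under these settings, against 159, and the number of listed genes with a lone site 89 and 90, against 130. Counting overlap on either strand, whole spans, a 50% overlap, stricter MCF-10A sites or genes listed as higher in MCF-10A left 1705 to 1713 lone sites, and 1612 remained without those that overlap another MDA-468 site. For the counts of the 22 gene lists, 17 values under these settings moved by over 1.5 times, all of them downward under the 2 stricter MDA-468 limits. The purine median of the strongest placed sites was 76.1% to 78.1% under the limits and transcript sets tried, and the share of strong genes with a purine-rich window was 70.8% to 83.3% with limits of 70% or 80% purines or windows of 90 or 210 nt, against 1.62% to 13.9% of all coding genes. The depth of the libraries is unknown, so how far it sets the number of weak lone sites was not tested.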
